A study of Mus musculus with 4 samples.

Results

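The genes described here are 32 genes of the p53 response and of apoptosis, chosen by name. A gene counted as measured where a probe set of the array carried its symbol and no other, and 29 of the 32 did, each through 1 probe set, among 19938 genes in all. Cdkn1a shared its only named probe set with another symbol, so it was not analysed here, and neither were Trp53 (p53 itself) and Bax. By role, 13 of 15 p53 targets, 12 of 13 members of the BCL2 family and 6 of 6 caspase and apoptosome genes were measured. Bbc3 and Pmaip1, like Bax, belong to both of the first 2 classes.

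The measurements came from primary cultures of cortical neurons of mouse pups at postnatal day 0, of a mixed SV129 x C57BL/6 background, read on Affymetrix mouse Gene 1.0 ST arrays. Knockdown cultures (n = 2) received lentiviruses with shRNAs against calmodulin 1 to 3. Rescue cultures (n = 2) received the same shRNAs and a wild-type calmodulin resistant to them, and control cultures received control lentiviruses. All were infected at day 5 in vitro and lysed at day 14 to 15, after growth in a medium that held serum and Ara-C, a drug that kills dividing cells. Pups were Syt1-deficient or wild type, and the labels do not say which array came from which, nor which promoters drove the shRNAs and the calmodulin. Each value is the ratio of a test array to the control array of the same repeat, given below as log2, so that 0 is equality with control. The 2 samples of a group carry different repeat days, with no statement that cultures were separate, so p-values here cover the spread between these samples alone, and it may be technical.

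p53 is a transcription factor that is stabilised by DNA damage and other stress, and its targets arrest the cell cycle, repair DNA, restrain p53 itself or start apoptosis. In mitochondrial apoptosis, BH3-only proteins of the BCL2 family bind the pro-survival members and activate the pore-forming effectors, cytochrome c leaves the mitochondrion, and Apaf1 assembles the apoptosome that activates caspase 9. Death receptors at the cell surface reach the caspases by another route, through caspase 8. In developing neurons the BH3-only genes Hrk and Bcl2l11 are known for their induction when trophic support or activity is withdrawn.

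Calm2 stood at -1.08 and -1.72 in the knockdown repeats and at -0.84 and -1.28 in the rescue repeats, and Calm3 at -1.32 and -2.40 in knockdown and -2.41 and -3.55 in rescue, and so were below control in all 4 samples. The spread of log2 ratios over all genes (standard deviation) was 0.349 in knockdown repeat 2, the widest, and 0.232 to 0.243 in the other samples. Several of the largest p53-target values below come from that sample. Ratios hold no levels, so whether neuron markers were abundant, or a dim gene was above background, could not be read. In bulk cultures, fewer cells of a type and less RNA per cell cannot be told apart.

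Knockdown set against control addresses the response of these genes to calmodulin depletion. None of the 29 genes passed the threshold in either direction (limma, adjusted p under 0.05 over all genes), where 0.135% of all genes were called higher and 0.171% lower, and the smallest adjusted p of a member was 0.118. At an unadjusted p under 0.05, 9 members (31%) lay above control, against 6.93% of all genes, and 1 (3.45%) lay below, against 9.04%. Those above were the p53 targets Fas, Tnfrsf10b, Gadd45a, Trp53inp1, Phlda3, Zmat3 and Pmaip1, the BH3-only gene Hrk and Apaf1, and the one below was Plk2. A log2 ratio of at least 0.32 in both repeats was found above control in Fas and Pmaip1 (2 members, 6.9%, against 2.41% of all genes) and below it in 0 members (4.14%). Both repeats were above control for 16 members (55.2%, against 30.5% of all genes) and below it for 2 (6.9%, against 31.1%). Of 13 p53 targets, 11 had a mean above control (84.6%, against 50.4% of all genes), with a class median of 0.36 where the median of all genes was 0.00. The class median was 0.18 in repeat 1 and 0.38 in repeat 2.

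**Figure D1:**
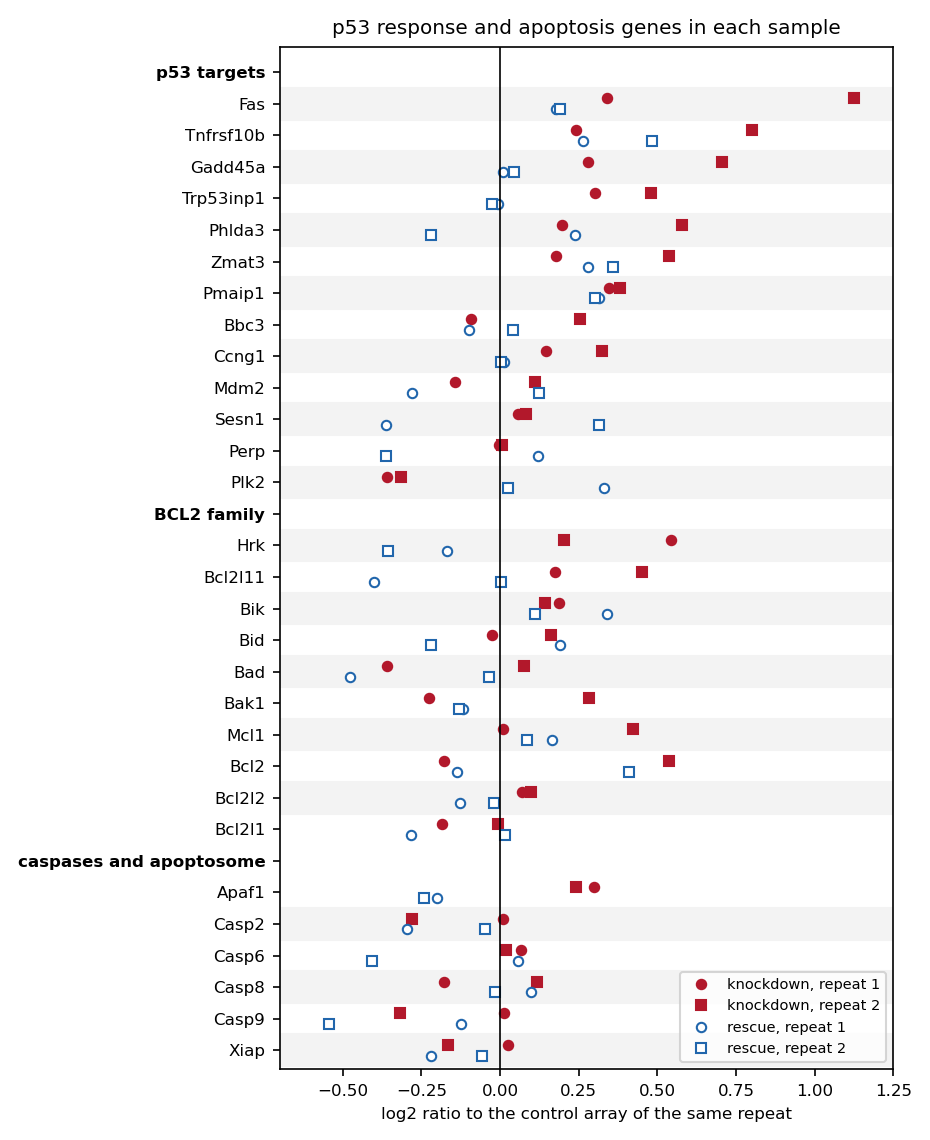
Log2 ratios to control (x axis) of the 29 measured genes (rows, by role), with filled red points for knockdown and open blue points for rescue, circles for repeat 1 and squares for repeat 2. Fas reached 1.13 and Tnfrsf10b 0.80 in knockdown repeat 2, Apaf1 and Hrk had knockdown above and rescue below control in both repeats, and Plk2 lay the other way round.

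Both death receptors of the list had their highest value in knockdown repeat 2. Fas, the receptor of Fas ligand, stood at 0.34 and 1.13 in the knockdown repeats and at 0.18 and 0.19 in the rescue repeats. Its knockdown values were above both rescue values, with a mean 1.66-fold above control (log2 0.73, SE 0.18, n = 2, limma adjusted p = 0.118 across all genes). Tnfrsf10b, the mouse TRAIL receptor, was at 0.24 and 0.80 in knockdown and at 0.26 and 0.48 in rescue. The groups overlapped, and the knockdown mean was 1.44-fold above control (SE 0.16 on the log2 scale, adjusted p = 0.173). Gadd45a, a stress-induced gene of growth arrest and DNA repair, was at 0.28 and 0.71 in knockdown, against 0.01 and 0.04 in rescue, without overlap (knockdown 1.41-fold above control, adjusted p = 0.149).

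With the repeat as a term in the model, 3 members passed as higher in knockdown than control, and these were Fas, Tnfrsf10b and Gadd45a (adjusted p = 0.0271, 0.0367 and 0.0454). In that fit 1.91% of all genes were called higher and 3.48% lower. At an unadjusted p under 0.05 that fit had 10 members above control, Bcl2l11 joining the 9, and Plk2 alone below (34.5% and 3.45%, against 11% and 12.8% of all genes). The fit with the repeat term takes out of the error what both groups of a repeat share, the spread of the control array included. On simulated data with such a shared control it called many more unchanged genes than its threshold allows, so these 3 calls are not firm. The simulation gave test and control arrays the same spread, so the rate of false calls in these data was not measured. Without knockdown replicate 1, repeat 2 is the lone knockdown sample and is assumed to vary like the rescue. Values were then 1.13 for Fas, 0.80 for Tnfrsf10b and 0.71 for Gadd45a. Without knockdown replicate 2 they were 0.34, 0.24 and 0.28. Calls from a lone sample are not firm, since it shows no spread of its own.

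The other p53 targets above control differed in how they stood in the rescue. Trp53inp1, a p53-induced nuclear protein that promotes autophagy and cell death, was at 0.30 and 0.48 in knockdown, against -0.01 and -0.02 in rescue, close to control. Phlda3, an inhibitor of Akt, was at 0.20 and 0.58 in knockdown and at 0.24 and -0.22 in rescue, so the groups overlapped. Zmat3 and Pmaip1 were above control in every sample. Zmat3, an RNA-binding zinc finger protein, was at 0.18 and 0.54 in knockdown, against 0.28 and 0.36 in rescue. Pmaip1, which encodes the BH3-only protein Noxa, had the most even values of the class, at 0.34 and 0.38 in knockdown and at 0.31 and 0.30 in rescue. Their adjusted p-values for knockdown against control were 0.179 (Trp53inp1), 0.275 (Phlda3), 0.243 (Zmat3) and 0.192 (Pmaip1).

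Mdm2, Bbc3, Sesn1 and Perp had knockdown means between -0.02 and 0.08. Mdm2, the ubiquitin ligase that degrades p53, was at -0.14 and 0.11 in knockdown, against -0.28 and 0.12 in rescue. Its knockdown mean was -0.02, with a 95% interval from -0.34 to 0.31. For Bbc3, Sesn1 and Perp the groups also overlapped. Bbc3, which encodes the BH3-only protein Puma, was at -0.09 and 0.25 in knockdown, against -0.10 and 0.04 in rescue. Sesn1, a sestrin that restrains mTORC1, was at 0.06 and 0.08 in knockdown and spread from -0.36 to 0.31 in rescue. Perp, a membrane protein of desmosomes, was at -0.00 and 0.00 in knockdown and at 0.12 and -0.36 in rescue. Ccng1, cyclin G1, lay higher than these 4 in knockdown, at 0.15 and 0.32, against 0.01 and 0.00 in rescue, without overlap (knockdown against control log2 0.23, adjusted p = 0.380).

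Plk2, a kinase that weakens synapses after strong activity and is also a p53 target, was the one member below control at an unadjusted p under 0.05. It stood at -0.36 and -0.31 in knockdown, against 0.33 and 0.02 in rescue. The knockdown values were alike, both rescue values were higher, and the knockdown mean was -0.34 (SE 0.13, adjusted p = 0.252).

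Promoter sequences are printed for 5 of the 6 genes that differed between knockdown and rescue at an unadjusted p under 0.05 (all but Trp53inp1) and for Fas, the member farthest above control. Each is 250 bases before a start listed in the RefSeq promoter table (GRCm38.p6), 5′ to 3′ on the strand of the gene: Fas at chr19:34290409-34290658 (+), Gadd45a at chr6:67037408-67037657 (-), Hrk at chr5:118169514-118169763 (+), Bcl2l11 at chr2:128125788-128126037 (+), Apaf1 at chr10:91082744-91082993 (-) and Plk2 at chr13:110394794-110395043 (+). The Fas window runs past position 34290647, where the annotated gene begins, and so holds the first bases of the gene. Capitals mark matches to any of 5 motifs, searched on both strands: the p53 half-site, the cAMP response element TGACGTCA, its shorter form TGACG (of which the full element holds 2 overlapping matches), the AP-1 site TGANTCA and the FOXO site GTAAACA.
Fas: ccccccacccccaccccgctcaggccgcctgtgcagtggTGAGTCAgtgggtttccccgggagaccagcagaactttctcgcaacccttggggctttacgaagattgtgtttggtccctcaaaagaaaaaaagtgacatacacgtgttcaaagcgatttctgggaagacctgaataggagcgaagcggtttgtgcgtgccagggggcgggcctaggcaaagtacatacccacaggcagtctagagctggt
Gadd45a: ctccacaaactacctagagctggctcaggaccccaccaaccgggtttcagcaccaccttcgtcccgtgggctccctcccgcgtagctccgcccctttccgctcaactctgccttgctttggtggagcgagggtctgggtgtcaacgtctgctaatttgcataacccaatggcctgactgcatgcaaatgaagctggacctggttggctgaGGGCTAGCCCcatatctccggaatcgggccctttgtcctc
Hrk: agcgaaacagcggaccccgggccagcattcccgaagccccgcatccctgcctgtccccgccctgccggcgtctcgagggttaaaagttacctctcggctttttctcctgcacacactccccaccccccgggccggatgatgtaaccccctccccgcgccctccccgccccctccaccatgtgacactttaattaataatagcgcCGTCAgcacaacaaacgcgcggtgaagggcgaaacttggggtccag
Bcl2l11: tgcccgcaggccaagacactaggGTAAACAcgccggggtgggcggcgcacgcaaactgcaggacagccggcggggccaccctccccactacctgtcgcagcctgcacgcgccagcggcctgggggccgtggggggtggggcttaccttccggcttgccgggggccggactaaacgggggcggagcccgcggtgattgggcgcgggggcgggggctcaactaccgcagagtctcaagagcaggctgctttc
Apaf1: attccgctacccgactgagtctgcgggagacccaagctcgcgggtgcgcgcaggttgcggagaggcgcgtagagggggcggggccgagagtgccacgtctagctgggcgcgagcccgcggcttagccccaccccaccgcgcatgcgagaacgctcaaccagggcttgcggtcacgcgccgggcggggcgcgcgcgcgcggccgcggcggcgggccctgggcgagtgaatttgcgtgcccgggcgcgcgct
Plk2: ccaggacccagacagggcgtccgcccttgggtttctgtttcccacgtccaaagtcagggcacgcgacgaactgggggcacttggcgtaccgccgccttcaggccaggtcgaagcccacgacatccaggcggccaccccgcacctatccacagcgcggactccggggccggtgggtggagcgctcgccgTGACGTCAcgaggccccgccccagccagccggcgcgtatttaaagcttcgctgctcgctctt
The Plk2 window held the cAMP response element, from 62 to 55 bases before the listed start, which 1.55% of all 32851 such windows hold. The Gadd45a window held a p53 half-site (7.13% of windows) and the Fas window an AP-1 site (6.75%). The Hrk window held the short form TGACG on the other strand (17.8%), and none of these letters were in the Apaf1 window. The printed Bcl2l11 window held a FOXO site (3.17%). Another Bcl2l11 window, at chr2:128127325-128127574 (+) and not printed, held none of the 5 motifs. Over the 23 measured members with a window, 4 had a p53 half-site in at least 1 window (8.2% of all genes in the table), 1 the full cAMP response element (1.77%), 6 its short form (19.8%), 1 the AP-1 site (7.82%) and 3 the FOXO site (3.54%). A match is a description of the sequence and no evidence of binding.

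In the BCL2 family, the values nearest to a call were those of BH3-only genes. Of 12 measured members, 0 passed and 2 (Hrk and Pmaip1) lay above control in knockdown at an unadjusted p under 0.05 (16.7%, against 6.93% of all genes). The class median in knockdown was 0.12, with -0.01 in repeat 1 and 0.23 in repeat 2, against -0.12 and 0.01 in the rescue repeats. Hrk, the BH3-only protein harakiri, was at 0.54 and 0.20 in knockdown and at -0.17 and -0.36 in rescue. It was the member with the largest value in knockdown repeat 1, and its groups did not overlap (knockdown against control log2 0.37, SE 0.13, adjusted p = 0.233). Bcl2l11, which encodes Bim, was at 0.18 and 0.45 in knockdown, against -0.40 and 0.00 in rescue, also without overlap (adjusted p = 0.331 against control). The BH3-only genes Bad, Bik and Bid overlapped between groups. Bad was at -0.36 and 0.08 in knockdown, against -0.48 and -0.03 in rescue, so that its values followed the repeat. Bik was at 0.19 and 0.14 in knockdown, against 0.34 and 0.11 in rescue, above control in each sample. Bid was at -0.03 and 0.16 in knockdown, against 0.19 and -0.22 in rescue.

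Of the 4 pro-survival members and the effector Bak1, 0 lay above or below control in knockdown at an unadjusted p under 0.05. Bcl2 was at -0.18 and 0.54 in knockdown, against -0.14 and 0.41 in rescue, so both groups were below control in repeat 1 and above it in repeat 2. Bcl2l1, which encodes Bcl-xL, the main pro-survival protein of mature neurons, was at -0.18 and -0.01 in knockdown, against -0.28 and 0.02 in rescue. These 2 genes overlapped between groups. Mcl1, a short-lived pro-survival protein, was at 0.01 and 0.42 in knockdown and at 0.17 and 0.08 in rescue. Bcl2l2, which encodes Bcl-w, was at 0.07 and 0.10 in knockdown, against -0.13 and -0.02 in rescue, a small difference without overlap. Bak1, a pore-forming effector, was at -0.23 and 0.28 in knockdown, against -0.12 and -0.13 in rescue.

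The 6 caspase and apoptosome genes had 1 member, Apaf1, above control in knockdown at an unadjusted p under 0.05 (16.7%, against 6.93% of all genes) and 0 below. The class median in knockdown was -0.05, with 0.02 in repeat 1 and -0.07 in repeat 2, and in rescue it was -0.17, with -0.16 and -0.15 in the repeats. Apaf1, the scaffold of the apoptosome, stood apart from the rest of its class at 0.30 and 0.24 in knockdown, against -0.20 and -0.24 in rescue. Knockdown was above and rescue below control in both repeats (knockdown against control log2 0.27, SE 0.12, adjusted p = 0.302). Casp9, the caspase that the apoptosome activates, was at 0.01 and -0.32 in knockdown and at -0.12 and -0.54 in rescue. Casp2 was at 0.01 and -0.28 in knockdown, against -0.30 and -0.05 in rescue, and Casp8, the caspase of death receptors, was at -0.18 and 0.12, against 0.10 and -0.02. These 3 caspase genes overlapped between groups. Casp6, an executioner caspase, was at 0.07 and 0.02 in knockdown, against 0.06 and -0.41 in rescue. Xiap, an inhibitor of caspases, was at 0.03 and -0.16 in knockdown and at -0.22 and -0.06 in rescue. Apart from Apaf1, the knockdown means of the class lay between -0.15 and 0.04, and their rescue means between -0.33 and 0.04. Knockdown minus rescue had a median of 0.12 in this class, with 5 of 6 members above 0. In the p53 targets it was also 0.12, with 12 of 13 above 0, where 55.5% of all genes lay above 0. By repeat the caspase class had medians of 0.19 and 0.18. The p53 targets were uneven, with 0.03 in repeat 1 and 0.32 in repeat 2.

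Rescue set against control addresses what was left of a difference once calmodulin was given back. No member passed (limma, smallest adjusted p = 0.614), where 0% of all genes were called in either direction, and with the repeat as a term 0 members passed as well (0.0602% of all genes higher, 0.0652% lower). At an unadjusted p under 0.05, 3 members (10.3%, against 2.95% of all genes) lay above control and 0 below (4.49%). With the repeat as a term, 3 lay above (5.43%) and 3 below (Bad, Hrk and Casp9, 10.3%, against 7.59%) at an unadjusted p under 0.05. In both fits those above were Tnfrsf10b (log2 0.37, SE 0.16), Zmat3 (0.32, SE 0.13) and Pmaip1 (0.31, SE 0.11), each also above control in the knockdown. Knockdown and rescue of a repeat share their control array, so this likeness is not independent. Farthest below control was Casp9 at -0.33 (SE 0.15, adjusted p = 0.677). Both repeats were above control for 9 members (31%, against 24.9% of all genes) and below it for 9 (31%, against 29.8%). By that count the list leaned to neither side, but its classes differed. Rescue means above control were found for 8 of 13 p53 targets (61.5%), 4 of 12 BCL2 family members (33.3%) and 1 of 6 caspase and apoptosome genes (16.7%). Of all genes, 47.4% had such a mean. A log2 ratio of at least 0.32 in both repeats was reached by 0 members above control (1.08% of all genes) and 0 below (1.63%).

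Knockdown set against rescue compares cultures with the same shRNAs that differ in the added calmodulin. The control array of a repeat cancels in the difference itself. The fit without the repeat term ignores the pairing, so its SE, intervals and p-values still hold the spread that both groups of a repeat share. For Bcl2l11 the SE was 0.20 in that fit and 0.15 with the repeat as a term. Over all genes 0 members passed (limma, 0.0401% of all genes called higher and 0.0301% lower, smallest adjusted p of a member 0.436), and 0 passed with the repeat as a term (0.186% and 0.431% of all genes, smallest 0.117). At an unadjusted p under 0.05, 5 members (17.2%, against 2.81% of all genes) were higher in knockdown and 1 (3.45%, against 4.01%) was lower. Those higher were Hrk, Apaf1, Bcl2l11, Trp53inp1 and Gadd45a, and the lower one was Plk2. With the repeat as a term Fas joined those higher (6 members, 20.7%, against 5.16%), and Plk2 stayed the 1 lower (3.45%, against 6.12%). Within both repeats the difference was above 0 for 13 members (44.8%, against 30.1% of all genes) and below 0 for 1 (3.45%, against 24.3%). The mean difference was above 0 for 26 of 29 members (89.7%, against 55.5% of all genes), with a median of 0.11 beside 0.02 over all genes.

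**Figure D2:**
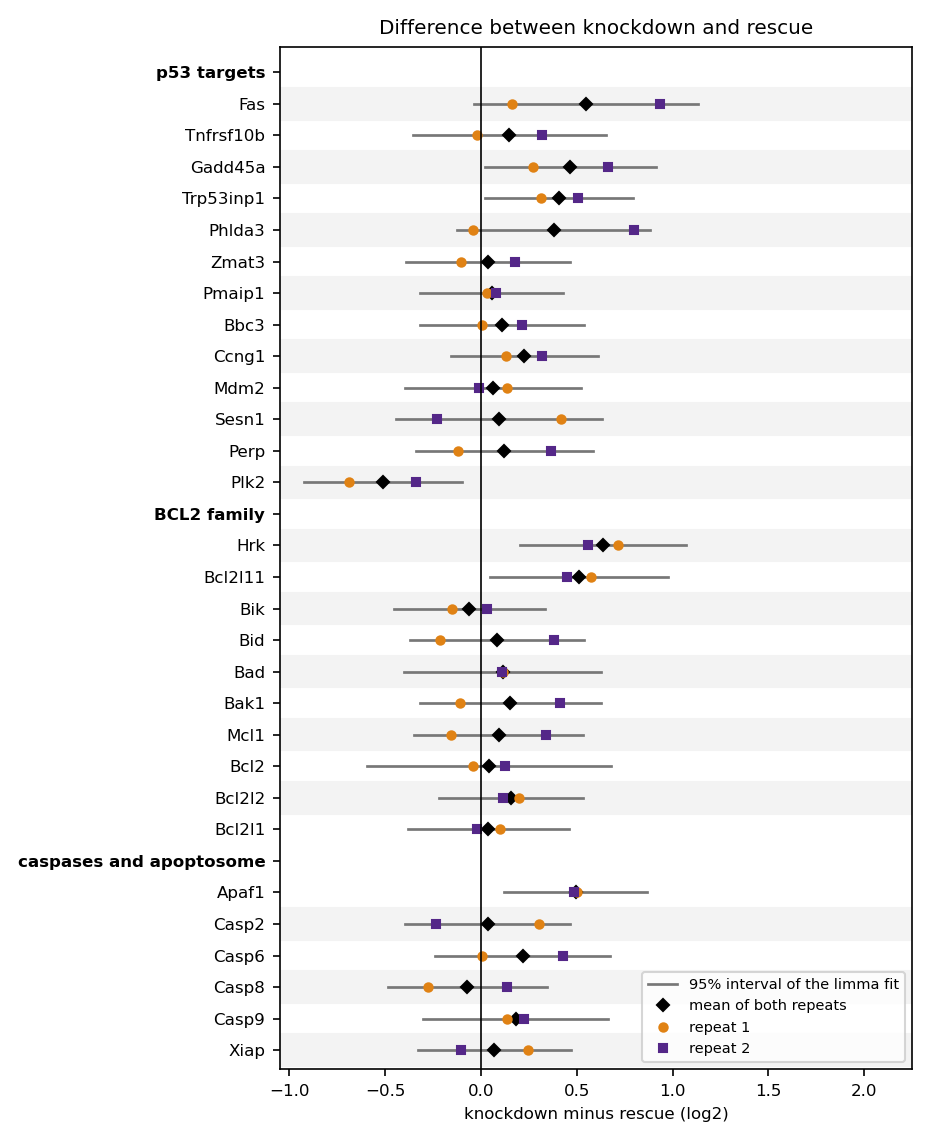
Knockdown minus rescue on the log2 scale (x axis) for each of the 29 genes (rows, by role), with the value in repeat 1 (orange circles), in repeat 2 (purple squares), their mean (black diamonds) and the 95% interval of the limma fit without a repeat term (grey lines). Intervals of Hrk, Apaf1, Bcl2l11, Trp53inp1 and Gadd45a lay above 0 and that of Plk2 below 0, before adjustment over all genes.

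Hrk differed most among the members, being 0.71 higher on the log2 scale in knockdown than in rescue in repeat 1 and 0.56 higher in repeat 2. The mean difference was 1.55-fold (log2 0.64, SE 0.19, 95% interval 0.20 to 1.07, n = 2 per group, adjusted p = 0.436). Bcl2l11 differed by 0.58 and 0.45 in the repeats (mean 0.51, 95% interval 0.05 to 0.98, adjusted p = 0.639). Apaf1 differed by 0.50 and 0.49 (mean 0.49, 95% interval 0.12 to 0.87, adjusted p = 0.499). These 3 genes were higher in knockdown by at least 0.32 in both repeats (10.3% of members, against 2.94% of all genes). In each of them part of the difference was a rescue below control, with rescue means of -0.26 for Hrk, -0.20 for Bcl2l11 and -0.22 for Apaf1.

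Among p53 targets, Trp53inp1 differed by 0.31 and 0.50 (mean 0.41, adjusted p = 0.678) and Gadd45a by 0.27 and 0.66 (mean 0.47, adjusted p = 0.688). For both genes the rescue was near control. Fas differed by 0.16 and 0.94, and its mean of 0.55 had a 95% interval from -0.03 to 1.13 (adjusted p = 0.772). Plk2 was lower in knockdown in both repeats, by -0.69 and -0.34 (mean -0.51, 95% interval -0.93 to -0.10, adjusted p = 0.544), and was lower by at least 0.32 in each (3.45% of members, against 3.6% of all genes). Both knockdown values lay above both rescue values for 9 members (31%, against 16.5% of all genes), which were Ccng1, Fas, Trp53inp1, Gadd45a, Pmaip1, Bcl2l11, Hrk, Bcl2l2 and Apaf1, and below them for Plk2 (3.45%, against 15.1%). Knockdown was above and rescue below control in both repeats for 4 members (13.8%, against 4.42% of all genes), and the reverse held for 1, Plk2 (3.45%, against 4.45%).

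Tnfrsf10b, Zmat3 and Pmaip1 were above control in both groups, and their knockdown and rescue values were close. Mean differences were 0.15 for Tnfrsf10b (95% interval -0.36 to 0.65), 0.04 for Zmat3 (-0.39 to 0.46) and 0.06 for Pmaip1 (-0.32 to 0.43). These intervals do not show that the groups were alike, since each leaves room for a difference of about the size seen against control.

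**Figure D3:**
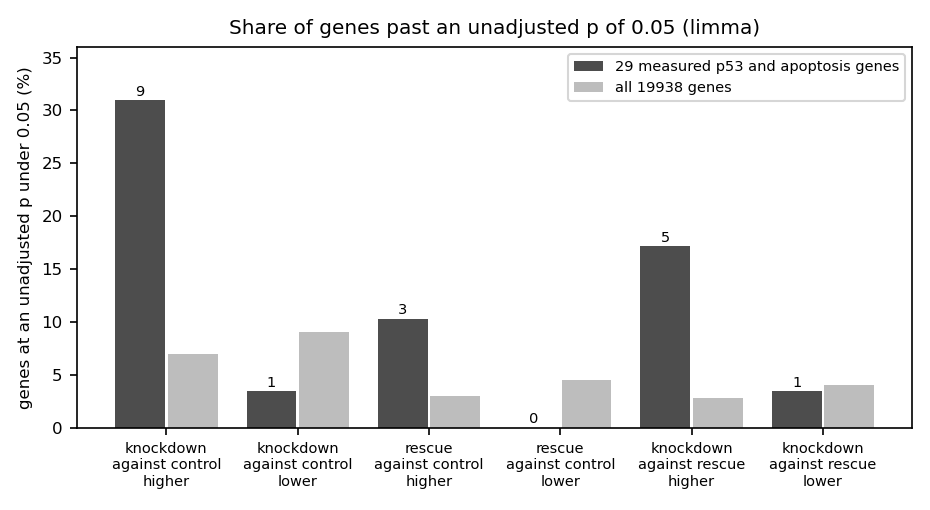
Percentage of genes at an unadjusted p under 0.05 in limma (y axis, from 0) in each comparison and direction, for the 29 measured p53 and apoptosis genes (dark bars, with the number of genes above) and for all 19938 genes (light bars). The share of members stood above that of all genes for the 3 higher directions (31%, 10.3% and 17.2%) and did not for the 3 lower ones.

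Other genes of these pathways were read from 5 further lists. Of 35 p53 network genes outside the members, 0 passed in any of the 3 comparisons (limma), and in knockdown 4 lay above and 2 below control at an unadjusted p under 0.05 (11.4% and 5.71%, against 6.93% and 9.04% of all genes), shares near the background. Its median in knockdown was -0.06 in repeat 1 and 0.19 in repeat 2, against -0.05 and 0.02 in rescue. Tigar, which diverts glucose into the pentose phosphate pathway, was at 0.42 and 0.39 in knockdown, against 0.34 and 0.19 in rescue. Dcxr, a xylulose reductase, was at 0.06 and 0.85 in knockdown, against 0.03 and 0.07 in rescue, and Gtse1 at 0.04 and 0.74, against 0.10 and 0.19, so that both rested on repeat 2. Atm, the kinase that activates p53 at DNA breaks, was at -0.33 and -0.44 in knockdown, against -0.77 and -0.02 in rescue. Cop1, a ubiquitin ligase for p53, separated the groups, at -0.23 and -0.10 in knockdown, against 0.39 and 0.34 in rescue (knockdown minus rescue -0.53, adjusted p = 0.463).

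Of 11 further BCL2 family genes 0 passed in any comparison. At an unadjusted p under 0.05, 2 lay above control in knockdown, Bmf and Bnip3 (18.2%, against 6.93% of all genes). The list as a whole did not lean up, since 5 of 11 had a knockdown mean above control (45.5%, against 50.4% of all genes). The median of its knockdown means was -0.02. Bmf, a BH3-only protein, was at 0.31 and 0.52 in knockdown, against -0.07 and -0.06 in rescue, the same order as Hrk and Bcl2l11 (knockdown minus rescue 0.48, adjusted p = 0.568). Bnip3, a mitochondrial protein of hypoxia and mitophagy, was at 0.33 and 0.36 in knockdown, against 0.13 and 0.07 in rescue. Bcl2l12 was at 0.06 and 0.64 in knockdown, against 0.19 and 0.18 in rescue, high in knockdown repeat 2 alone. Bcl2l13 was below control in both knockdown repeats, at -0.13 and -0.32, against 0.09 and -0.12 in rescue. Of 17 further caspase and execution genes 0 passed without the repeat term. Dffa, the inhibitor of the nuclease that cuts DNA in apoptosis, was below control in each sample. It stood at -0.51 and -0.59 in knockdown and at -0.67 and -0.37 in rescue. Its knockdown adjusted p was 0.107 (limma), or 0.0341 with the repeat as a term, where calls against control are not firm. Parp1, the enzyme that marks DNA breaks and is cut by caspases, was at -0.28 and -0.41 in knockdown, against -0.23 and -0.08 in rescue (knockdown adjusted p = 0.222). Casp12 and Casp1 separated the groups in opposite directions. Casp12, a caspase of the endoplasmic reticulum, was at 0.46 and 0.22 in knockdown, against -0.09 and -0.13 in rescue. Casp1, the inflammatory caspase, was at -0.14 and -0.04 in knockdown, against 0.95 and 0.21 in rescue (knockdown minus rescue -0.67, adjusted p = 0.603).

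Of 13 other death receptor pathway genes and 14 inducers of neuronal apoptosis, 0 passed without the repeat term. Tnfrsf25, a death receptor best known on T cells, was at -0.28 and -0.72 in knockdown, against -0.18 and -0.59 in rescue, and Mapk8, which encodes the kinase JNK1, at -0.41 and -0.60, against 0.12 and -0.07. Without the repeat term their adjusted p-values in knockdown against control were 0.188 and 0.118 (limma). With the repeat as a term both passed as lower (adjusted p = 0.0337 and 0.0329), where 3.48% of all genes did. That fit against control made many false calls on simulated data, so these calls are not firm. Tnfrsf1a, a receptor of tumour necrosis factor, was at 0.00 and 0.67 in knockdown, against 0.14 and -0.03 in rescue. The caspase 8 inhibitor Cflar was at 0.10 and 0.30 in knockdown, against -0.08 and -0.19 in rescue. The stress transcription factors Ddit3 and Atf3 were higher in knockdown repeat 2 than in knockdown repeat 1. Ddit3 was at -0.25 and 1.18 in knockdown, against 0.67 and 0.85 in rescue, and Atf3 at -0.07 and 0.90, against 0.06 and 0.52. Trib3, a target of Ddit3, was at -0.10 and 1.00 in knockdown, against 0.29 and 0.64 in rescue. In knockdown repeat 1 these 3 genes lay below control, and a tie between them and the members was not tested.

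Markers of other cells moved in the same samples. All 8 astrocyte markers had a knockdown mean above control, from 0.12 to 0.45, with list medians of 0.27 and 0.37 in the knockdown repeats, against -0.08 and -0.03 in the rescue repeats, where 2 of 8 had a mean above control. Fibroblast markers (5 of 6 above control in the knockdown mean) had medians of -0.06 and 0.53 in knockdown and -0.12 and -0.09 in rescue, so knockdown repeat 2, in which Fas, Tnfrsf10b and Gadd45a were highest, was also highest in these. Endothelial markers (5 of 5 and 4 of 5 above control in knockdown and rescue) had medians of -0.06 and 0.32 in knockdown, against 0.04 and 0.11 in rescue. Microglia and macrophage markers had medians of -0.34 and -0.03 in knockdown and -0.45 and -0.20 in rescue, and 1 of 7 was above control in each group. In the remaining lists the group medians lay closer together than those of astrocyte markers. Oligodendrocyte lineage markers had medians of -0.07 and 0.07, against -0.10 and -0.21, and dividing-cell markers of -0.22 and 0.01, against -0.25 and 0.10. Neuron markers had medians of -0.12 and -0.26 in knockdown, against -0.07 and -0.01 in rescue, and 2 of 6 were above control in the knockdown mean. In the fit with the repeat as a term, in which Fas, Tnfrsf10b and Gadd45a passed, the neuron marker Rbfox3 was lower in knockdown than control (log2 -0.64, adjusted p = 0.0371), and the astrocyte markers Gja1 (0.45, adjusted p = 0.0453) and Sox9 (0.44, adjusted p = 0.0476) were higher. In that fit 1.91% of all genes were called higher and 3.48% lower. It made many false calls against control on simulated data, so these marker calls are not firm either. The part of these marker shifts in the p53 and apoptosis values was not tested.

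**Figure D4:**
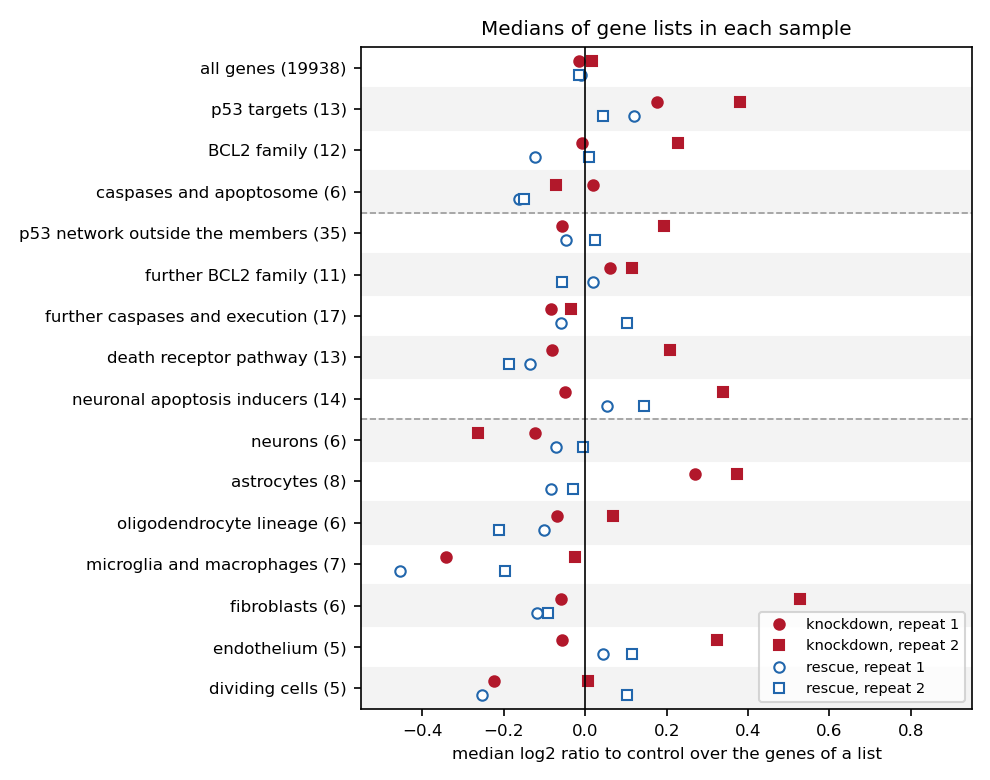
Median log2 ratio to control (x axis) of each gene list (rows, with the number of measured genes in brackets) in the 2 knockdown samples (filled red) and the 2 rescue samples (open blue), circles for repeat 1 and squares for repeat 2, with the role classes and all genes above the first dashed line, the further pathway lists between the lines and the cell markers below. Knockdown medians were above rescue medians in both repeats for the 3 role classes, the further BCL2 family, the death receptor pathway, and astrocyte, oligodendrocyte, microglia and fibroblast markers, and fibroblast markers reached 0.53 in knockdown repeat 2.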

How the data were processed

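The values deposited by the authors are linear ratios of a test to a control array, paired by repeat, per the labels. The sources used here do not give the background correction, summarization or normalization, and the control arrays were not used here. The table held 35399 probe sets, of which 21789 had exactly 1 symbol in the platform annotation, 1621 had several, and the annotation did not list 11989. For 21698, symbols matched RefSeq names (GRCm38.p6) by Entrez identifier, and 0 changed. Ratios were put on the log2 scale and averaged per symbol, without further centring.

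All 4 samples were fitted with limma 3.58.1 (R 4.3.3; lmFit, eBayes, two-sided) with a coefficient per group, 2 residual and 6.11 prior degrees of freedom, and Benjamini-Hochberg adjustment over 19938 genes at 0.05. Intervals are 95% limits of that fit. Samples with the same number share a day of the experiment in the labels, which pairs them (deviations from group means correlated at 0.305 across genes), and a second model held the repeat as a block. On simulated data the fit without the block recovered the changes put in with few false calls, while the block fit against control, where the control array is shared, made many. A size count took genes with a log2 value of at least 0.32 in both repeats. All measured members were named, and genes of the further lists could be named if among the 4 with the largest change in knockdown against control or against rescue. The number of arrays limits the precision. Members, lists and tests were chosen with earlier results of these data known, and the count of knockdown and rescue differences by size was added after the values were seen.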

Additional observations from a re-analysis of the deposited data

Results flagged for a closer look

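For 5 genes both knockdown values lay on one side of control and both rescue values on the other. The difference between knockdown and rescue was tested in the limma fit over all genes and none of the 5 passed. Trp53inp1 was 0.41 higher in knockdown on the log2 scale (higher in 2 of 2 repeats, adjusted p = 0.678), Hrk 0.64 higher (2 of 2, adjusted p = 0.436), Bcl2l2 0.16 higher (2 of 2, adjusted p = 1.00) and Apaf1 0.49 higher (2 of 2, adjusted p = 0.499). Plk2 was lower in knockdown in 2 of 2 repeats, by -0.51 (adjusted p = 0.544). Of all genes, 4.42% had knockdown above and rescue below control in this way and 4.45% the reverse, against 4 and 1 of the 29 measured members.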

How the results depend on the processing

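Over all genes, 61 passed in knockdown against control, 0 in rescue against control and 14 in knockdown against rescue. With the replicate block, which pairs samples by repeat, 1074, 25 and 123 genes passed, and 3 members (Fas, Tnfrsf10b and Gadd45a) passed in knockdown against control. The block changed no other call of a member, and on simulated data with a shared control array its fits against control made many false calls. It brought Calm3 in knockdown (-1.86), in rescue (-2.98) and in knockdown minus rescue (1.12), and Calm2 in rescue (-1.06), past the threshold. Quantile normalization left 20, 1 and 2 genes, brought Calm3 in knockdown (-1.52) and rescue (-2.71) past it, and gave caspase medians of -0.19 in rescue and 0.17 in knockdown minus rescue. Median centring gave these as -0.16 and 0.11, with 4 genes in knockdown against rescue. Every probe set on its own, genes with 1 probe set and robust empirical Bayes each also gave 4. Fitting each group alone gave 12 genes in knockdown, where Calm2 (-1.40) no longer passed, and 176 in rescue, where Calm2 (-1.06) and Calm3 (-2.98) passed.

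Leaving out each replicate in turn gave 12 to 1272 genes in knockdown against control, 0 to 176 in rescue against control and 0 to 350 in knockdown against rescue, with 0 to 3 members in the first and 0 to 1 in the last. Fas, Tnfrsf10b and Gadd45a, and Fas in knockdown against rescue, passed only without knockdown replicate 1 among these 4 fits. Calm2 ranged from -1.72 to -1.08 in knockdown and from -1.28 to -0.84 in rescue. Calm3 ranged from -2.40 to -1.32 in knockdown, from -3.55 to -2.41 in rescue and from 0.55 to 1.69 in the difference. The p53 target median ranged from 0.18 to 0.38 in knockdown and from 0.0090 to 0.12 in rescue. The BCL2 family median of the difference ranged from -0.045 to 0.29. The caspase median ranged from -0.072 to 0.020 in knockdown, from -0.17 to -0.15 in rescue and from 0.046 to 0.21 in the difference.

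By size in both repeats, a limit of 1.2-fold gave 4 members above and 1 below control in knockdown, 3 above in rescue and 5 higher in knockdown than rescue. A limit of 1.5-fold gave 0 above control in knockdown, 0 higher and 0 lower than rescue. Centring put 1 below control in knockdown. Quantile normalization put 1 above control in rescue and 0 lower in knockdown than rescue. Shares of all genes were not counted at these limits or normalizations, so these counts of members cannot be set against a background. The cause of the shifts in count was not tested. No value of a member that passed the threshold changed sign. Values that passed in neither of the settings compared did so for 11 members in knockdown, 11 in rescue and 18 in the difference when a replicate was left out, and for 2, 1 and 3 members under the other alternatives. With 2 arrays a group, small changes cannot be told from the spread.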
